A study of Mus musculus with 18 samples.

Results

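The genes described here encode 10 antioxidant enzymes that are linked to Pgc1α, the transcriptional coactivator that drives mitochondrial biogenesis together with the enzymes that remove its oxidant by-products. They are the superoxide dismutases Sod1 and Sod2, catalase (Cat), the glutathione peroxidases Gpx1, Gpx2 and Gpx4, the peroxiredoxins Prdx3 and Prdx5, thioredoxin 2 (Txn2) and its reductase Txnrd2. Members were found by their gene name on the array, and each gene is represented by its brightest probe. All 10 of 10 were present among the 37074 gene names of the array, and all 10 were well above background on all 18 arrays, so that no member was lost to the filter on dim probes, which left 21542 gene names for testing.

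Cells isolated from the ileum of 18 male C57BL6/J mice were profiled on Agilent one-colour microarrays, with a separate array for each animal. The chow controls (6 mice) were Pgc1α fl/fl animals fed chow, the WD controls (6 mice) were Pgc1α fl/fl animals fed a Western diet (WD), and the 6 iPgc1α-/- mice were fed WD as well. Every mouse carried floxed Pgc1α alleles, and the iPgc1α-/- mice also carried Vil1-Cre, in which the villin promoter drives the recombinase in the intestinal epithelium. Feeding with WD, which supplied 42% of energy as fat and contained 0.2% cholesterol, began at 8 weeks of age and lasted 8 weeks. The chow controls were likewise 8 weeks old at the start. All mice were killed after an overnight fast, at Zeitgeber time 3, which is 3 hours after lights on. In the sample labels WD appears as HFD, and the genotypes are written iPGC1afl/fl and iPGC1a-/-. A chow-fed iPgc1α-/- group was not analysed here, which leaves the diet difference within that genotype uncomputed.

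Superoxide leaks from the respiratory chain and is converted to hydrogen peroxide by the dismutases, Sod1 in the cytosol and intermembrane space and Sod2 in the mitochondrial matrix. Hydrogen peroxide is then removed by catalase in peroxisomes, by glutathione peroxidases with glutathione as the reductant, and by peroxiredoxins, which in mitochondria are reduced by Txn2 and Txnrd2. Gpx4 differs from its relatives in that it reduces lipid hydroperoxides within membranes, and Gpx2 is the glutathione peroxidase typical of the gastrointestinal epithelium.

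On WD, catalase, Gpx4 and Sod1 were higher in every control mouse than in any mouse on chow, Prdx5 and Txnrd2 rose by less and with overlap, and no member passed the test for genotype. The transcripts that rose without overlap between the diets are shown with the 250 bases before their RefSeq start sites (assembly GRCm38.p6), together with Gpx2, the one member whose window held the half-site of estrogen-related receptors, a nuclear receptor family that Pgc1α coactivates. Capitals mark matches to the motifs searched. The Sod1 window lies on the plus strand at chr16:90220512-90220761, and its capitals match an antioxidant response element on the opposite strand, starting 56 bases before the listed start. The Gpx4 window, at chr10:80053315-80053564 on the plus strand, belongs to 1 of 4 listed starts, and its capitals match an NRF1 site 59 bases before the start. The Cat window, on the minus strand at chr2:103485154-103485403, held no match. The Gpx2 window, on the minus strand at chr12:76795555-76795804, carries the half-site in reverse orientation, 134 bases before the start.
Sod1: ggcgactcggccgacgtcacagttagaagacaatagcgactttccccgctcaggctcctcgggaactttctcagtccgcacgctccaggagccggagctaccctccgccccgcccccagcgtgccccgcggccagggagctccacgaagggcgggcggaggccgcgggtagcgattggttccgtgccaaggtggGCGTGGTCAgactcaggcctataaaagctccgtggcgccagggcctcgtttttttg
Gpx4: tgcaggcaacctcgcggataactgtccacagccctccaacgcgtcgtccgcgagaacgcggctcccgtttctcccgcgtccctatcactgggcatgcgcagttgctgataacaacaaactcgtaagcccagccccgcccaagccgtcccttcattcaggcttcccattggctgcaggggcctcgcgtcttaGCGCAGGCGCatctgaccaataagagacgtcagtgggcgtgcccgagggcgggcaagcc
Cat: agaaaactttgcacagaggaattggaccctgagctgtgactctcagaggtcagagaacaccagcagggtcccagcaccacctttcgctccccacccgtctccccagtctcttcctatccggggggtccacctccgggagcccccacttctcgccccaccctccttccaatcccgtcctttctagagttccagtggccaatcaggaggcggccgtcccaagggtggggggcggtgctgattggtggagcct
Gpx2: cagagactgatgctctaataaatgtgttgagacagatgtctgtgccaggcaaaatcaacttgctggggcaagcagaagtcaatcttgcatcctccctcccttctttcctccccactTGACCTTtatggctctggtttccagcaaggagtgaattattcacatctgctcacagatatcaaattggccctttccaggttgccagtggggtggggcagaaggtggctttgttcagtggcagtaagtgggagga

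Both strands of 13 windows of the 10 genes were searched for 5 motifs. The estrogen-related receptor half-site AAGGTCA was present in 4.08% of all 32851 windows of that length, the NRF1 site (GCGC, any base, then TGCGC) in 3.74%, the antioxidant response element TGACNNNGC in 10.2%, the FOXO site GTAAACA in 3.17% and the DR1 element of PPARs (AGGTCA, any base, then AGGTCA again), which contains AAGGTCA where its middle base is A, in 0.0335%. The Gpx4 site was counted in the windows of 2 neighbouring starts that overlap, and no other match was found among the members. The GC content of the members' windows ran from 42% (Gpx1) to 66.4% (Sod1). A match is a description of letters, and binding was not measured.

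The probes themselves were distinct in sequence. Among the 45 pairs of members, the longest run of bases that 2 brightest probes shared was 9 of 60. The probes of the related glutathione peroxidases therefore share only short runs. Whether a probe also matches the transcript of another member was not searched. The Gpx4 and Gpx1 probes are printed for that reason, in the orientation of the transcript. The Gpx4 probe lies at chr10:79518691-79518842 (mm9, plus strand), a stretch of 152 bases for a 60-base probe, so it bridges an intron, and the Gpx1 probe lies at chr9:108242276-108242335 (mm9, plus strand).
Gpx4: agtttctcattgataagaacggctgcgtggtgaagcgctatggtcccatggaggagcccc
Gpx1: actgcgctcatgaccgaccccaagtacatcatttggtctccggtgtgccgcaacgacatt

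Signals are given as log2 of the normalized spot brightness, a scale on which 1 unit is a doubling. Levels are compared only between groups for the same probe, because brightness does not rank different probes. One limma model of the 3 groups gave the tests, p-values were adjusted over all 32726 probes, and a gene was called at an adjusted p of 0.05 or lower. Each of the 3 slides carried 2 arrays from every group. The share of spots well above background was 56.3% to 62.3% per array. Precision was limited by the number of arrays, with standard errors of log2 differences centred on 0.104 (median over probes). In bulk RNA of this kind, fewer cells of a type and less RNA per cell cannot be told apart.

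The targeted gene could not serve as a check of the deletion. The 2 Ppargc1a probes lie at chr5:51848928-51848987 and chr5:51849419-51849478 (mm9), toward the 3′ end of the transcript, downstream of the exons that Cre removes. The brighter probe read 10.94 ± 0.46 on chow, 11.38 ± 0.07 on WD and 11.67 ± 0.26 in iPgc1α-/- mice (mean ± SD, n = 6 each). Its diet difference of 0.44 had an adjusted p of 0.0556 and its genotype difference of 0.30 an adjusted p of 0.573. The dimmer probe differed by 0.51 for diet (adjusted p = 0.0272) and by 0.36 for genotype (adjusted p = 0.494). On these arrays, genotype differences therefore rest on the labels. The paper reports a separate check of the deletion, by RT-qPCR of Pgc1α along the intestine.

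**Figure D1:**
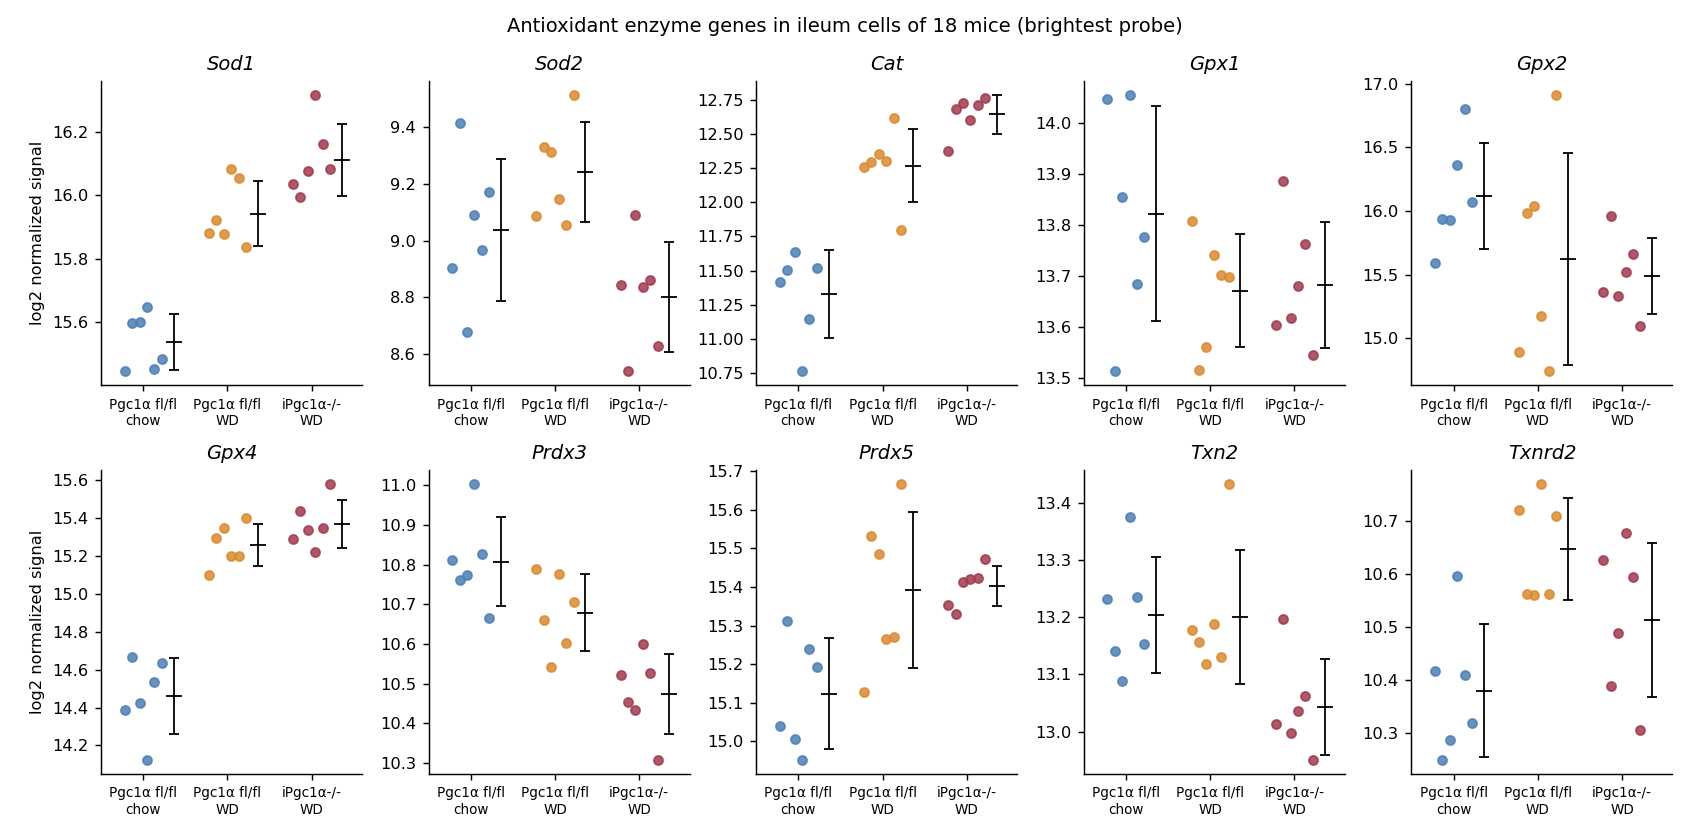
Each panel plots the log2 normalized signal of 1 gene in every mouse, with chow controls, WD controls and iPgc1α-/- mice on WD from left to right, points ordered by replicate number within a group, and the bar at the right of each group giving mean ± SD (n = 6). The vertical axes differ between panels. Sod1, Cat and Gpx4 have no chow mouse as high as any WD mouse, while Gpx2 spreads from 14.74 to 16.91 among the WD controls.

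The first comparison asked how the antioxidant enzymes differed between WD and chow when Pgc1α was intact. Of the 10 members, 5 rose and 0 fell. Over all genes tested, 24.6% were called in either direction, 10.4% higher and 14.2% lower. With a change of more than 1.5-fold also required, 2 members remained, Cat and Gpx4, beside 8.43% of all genes. The median log2 fold change of the members was 0.24, and that of all genes 0.003. The groups did not overlap for 3 members, beside 10.4% of all genes.

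Catalase, the peroxisomal enzyme that splits hydrogen peroxide into water and oxygen, showed the largest diet difference of the members. Its signal ran from 10.76 to 11.64 on chow (median 11.46) and from 11.80 to 12.61 on WD (median 12.30). Every WD mouse lay above every chow mouse. The means were 11.33 ± 0.32 and 12.27 ± 0.26 (SD, n = 6 each), a log2 fold change of 0.94 (SE 0.14, 1.91-fold, adjusted p = 5.1e-05). The exact permutation p over the 924 divisions of 12 mice was 0.0022, two-sided, the smallest that this design can give. Within the 3 slides the difference was 0.93, 0.97 and 0.91, so it was nearly the same on each.

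Gpx4, the lipid hydroperoxide reductase, followed. Its signal lay between 14.12 and 14.67 on chow (median 14.48) and between 15.10 and 15.40 on WD (median 15.25), again without overlap. The log2 fold change was 0.79 (SE 0.091, 1.73-fold, adjusted p = 4.0e-06), with an exact permutation p of 0.0022. On the separate slides the difference was 0.84, 0.64 and 0.90. Gpx4 was the member with the lowest adjusted p for diet, with an SD of 0.20 on chow and 0.11 on WD.

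The other glutathione peroxidases did not move with Gpx4. Gpx1, the ubiquitous cytosolic and mitochondrial form, ran from 13.51 to 14.06 on chow (median 13.82) and from 13.52 to 13.81 on WD (median 13.70), groups that overlapped throughout. Its log2 fold change was -0.15 (SE 0.093, 95% confidence interval -0.34 to 0.04, adjusted p = 0.255). Gpx2 ran from 15.60 to 16.80 on chow (median 16.00) and from 14.74 to 16.91 on WD (median 15.58), with the highest and the lowest mouse both in the WD group. Its log2 fold change was -0.49 (SE 0.29, interval -1.09 to 0.11, adjusted p = 0.229). The SD of Gpx2 on WD, 0.83, was the largest of any member in any group, and without WD control replicate 6, the mouse at 16.91, the difference was -0.74 with an adjusted p of 0.0334. A 2-fold fall of Gpx2 therefore lies within its interval, whereas the interval of Gpx1 ends at -0.34. The WD control arrays of replicates 2, 3 and 6 were dimmer (median spot signal 44, 41.5 and 39) than the others (52). They read Gpx2 at 15.99, 16.04 and 16.91, and replicates 1, 4 and 5 read it at 14.89, 15.17 and 14.74. Sod2, Gpx4 and Prdx5 were also higher on the dimmer arrays without overlap, Gpx1 was lower, and the other members overlapped. Among iPgc1α-/- mice, replicates 1, 2, 3 and 6 had the dimmer arrays (44, 45, 42 and 44). Replicates 4 and 5 had brighter ones (49.5 and 61). There Gpx2 read 15.37, 15.96, 15.33 and 15.10 against 15.52 and 15.66, and overlapped, as did Sod2, Gpx4, Prdx5 and Gpx1. Sod1 and Prdx3 were lower on those dimmer arrays without overlap. The part of array brightness in these values was not tested.

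Of the dismutases, only Sod1 passed the test. Sod1, the copper and zinc enzyme, ran from 15.45 to 15.65 on chow (median 15.54) and from 15.84 to 16.08 on WD (median 15.90), without overlap. The log2 fold change was 0.40 (SE 0.072, 1.32-fold, adjusted p = 3.9e-04), with an exact permutation p of 0.0022, and it was 0.46, 0.41 and 0.34 on the 3 slides. A second Sod1 probe, much dimmer and matching a transcript whose genomic match lies upstream of the first, differed by 0.06 for diet (adjusted p = 0.801). The mean of both Sod1 probes gave 0.23 with an adjusted p of 0.0758. Sod2, the manganese enzyme of the matrix and a classic Pgc1α-responsive gene, ran from 8.68 to 9.41 on chow (median 9.03) and from 9.06 to 9.51 on WD (median 9.23), with overlap. Its log2 fold change was 0.20 (SE 0.12, interval -0.04 to 0.45, adjusted p = 0.217).

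Among the mitochondrial peroxide-removing proteins, Prdx5 and Txnrd2 rose modestly and Prdx3 and Txn2 did not pass the test. Prdx5, a peroxiredoxin of mitochondria, peroxisomes and cytosol, ran from 14.95 to 15.31 on chow (median 15.12) and from 15.13 to 15.67 on WD (median 15.38), with overlap. The log2 fold change was 0.27 (SE 0.089, adjusted p = 0.0348, exact permutation p = 0.030), and its second probe differed by 0.30 (adjusted p = 0.0491). On the slides the Prdx5 difference was 0.38, 0.09 and 0.34. The call of Prdx5 was lost when any of 7 of the 18 arrays was left out (chow control replicates 1, 3 and 4, WD control replicates 2, 3 and 6, and iPgc1α-/- replicate 5), with adjusted p-values from 0.0528 to 0.0877. WD control replicates 2, 3 and 6, on the dimmer arrays, read Prdx5 at 15.53, 15.49 and 15.67. Replicates 1, 4 and 5 read it at 15.13, 15.26 and 15.27.

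Txnrd2, the mitochondrial selenoenzyme that reduces Txn2, ran from 10.25 to 10.60 on chow (median 10.36) and from 10.56 to 10.77 on WD (median 10.64), where 1 chow mouse reached into the WD range. The log2 fold change was 0.27 (SE 0.080, adjusted p = 0.0201, exact permutation p = 0.0087), and 2 further probes of the gene differed by 0.21 each (adjusted p = 0.333 and 0.0281). Leaving out chow control replicate 3 gave an adjusted p of 0.0532, and leaving out WD control replicate 4 gave 0.0584. Prdx3, the main peroxiredoxin of the matrix, ran from 10.67 to 11.00 on chow (median 10.79) and from 10.54 to 10.79 on WD (median 10.68). Its log2 fold change was -0.13 (SE 0.073, interval -0.28 to 0.02, adjusted p = 0.213). Txn2, which carries electrons to Prdx3 and Prdx5, ran from 13.09 to 13.38 on chow and from 13.12 to 13.43 on WD, and its log2 fold change of -0.003 (interval -0.15 to 0.15, adjusted p = 0.982) was the closest to 0 of all members.

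**Figure D2:**
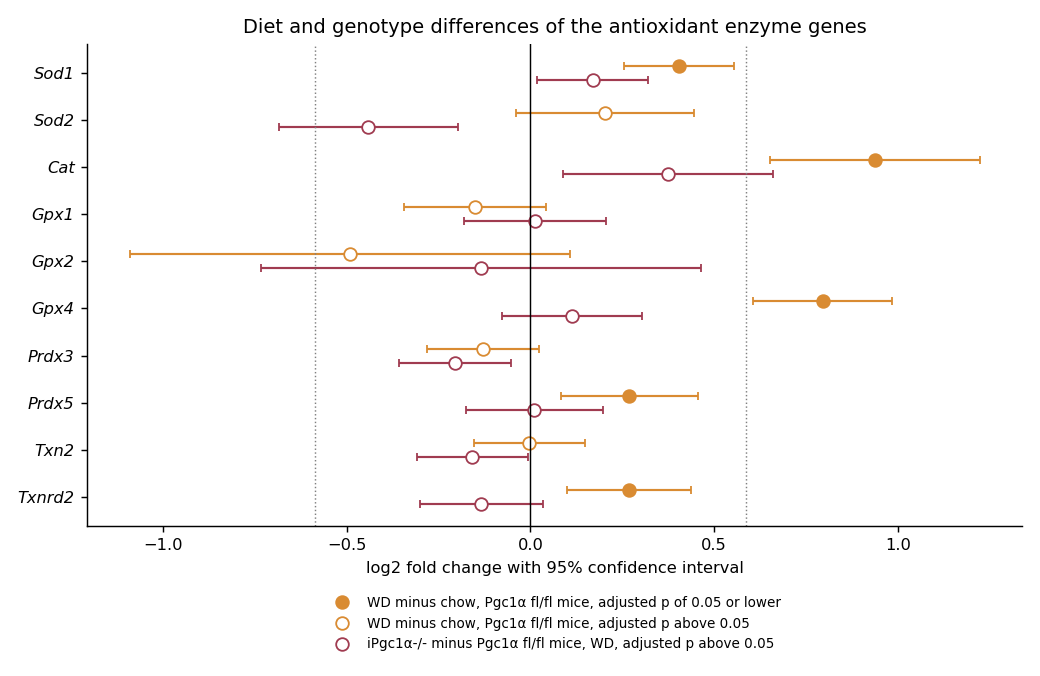
The horizontal axis gives the log2 fold change of each member with its 95% confidence interval, for WD controls against chow controls and for iPgc1α-/- mice against WD controls; filled points have an adjusted p of 0.05 or lower, and dotted lines mark a 1.5-fold change. The 5 filled points are all diet differences to the right of 0, and only Cat and Gpx4 lie beyond the dotted line.

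The second comparison asked how the members differed by genotype when both groups were fed WD. By limma, 0 of 10 members passed the test, beside 0.227% of all genes (49 of 21542), and no member had groups without overlap, beside 0.955% of all genes. At an unadjusted p under 0.05 there were 5 members, Sod1 and Cat higher and Sod2, Prdx3 and Txn2 lower, beside 9.28% of all genes. The median log2 fold change of the members was -0.06, and that of all genes 0.006. For 7 of 10 members the 95% interval lay within a 1.5-fold change in either direction, and the exceptions were Sod2, Cat and Gpx2.

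Sod2 had the largest difference by genotype. Its signal ran from 9.06 to 9.51 in WD controls (median 9.23) and from 8.54 to 9.09 in iPgc1α-/- mice (median 8.84). The groups overlapped by 1 iPgc1α-/- mouse at 9.09. The means were 9.24 ± 0.18 and 8.80 ± 0.19 (SD, n = 6 each), a log2 fold change of -0.44 (SE 0.12, interval -0.68 to -0.20, unadjusted p = 0.0011, adjusted p = 0.197, exact permutation p = 0.0065). The difference was -0.49, -0.47 and -0.36 on the 3 slides. After adjustment over all probes it did not pass. Sod2 has 1 probe on the array, at position 3702 of its listed transcript, so transcripts that end before that position were not read.

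Prdx3 and Txn2, both matrix proteins, had differences of the same sign as Sod2. Prdx3 ran from 10.31 to 10.60 in iPgc1α-/- mice (median 10.49), against 10.54 to 10.79 in WD controls, with overlap. Its log2 fold change was -0.20 (SE 0.073, adjusted p = 0.402, exact permutation p = 0.0043), and on the slides -0.14, -0.21 and -0.26. Txn2 ran from 12.95 to 13.20 (median 13.02), and its log2 fold change was -0.16 (SE 0.072, adjusted p = 0.505, exact permutation p = 0.015). A second Txn2 probe differed by 0.002 (adjusted p = 0.995) and the dimmest by -0.12 (adjusted p = 0.657), so the probes of Txn2 did not read alike. Txnrd2 ran from 10.30 to 10.68 (median 10.54) with a log2 fold change of -0.13 (SE 0.080, interval -0.30 to 0.03, adjusted p = 0.605).

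Catalase and Sod1 had genotype differences of the same sign as their diet differences. Catalase ran from 12.38 to 12.77 in iPgc1α-/- mice (median 12.70), overlapping the upper end of the WD controls. Its log2 fold change was 0.37 (SE 0.14, interval 0.09 to 0.66, adjusted p = 0.419, exact permutation p = 0.0065), and the slides gave 0.24, 0.38 and 0.50. Sod1 ran from 16.00 to 16.32 (median 16.08), and its log2 fold change was 0.17 (SE 0.072, adjusted p = 0.478, exact permutation p = 0.026). These differences did not pass the adjustment either.

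The remaining members had genotype differences smaller than their diet differences. The log2 fold change was 0.11 for Gpx4 (interval -0.08 to 0.30, adjusted p = 0.712), 0.01 for Gpx1 (interval -0.18 to 0.21, adjusted p = 0.978) and 0.01 for Prdx5 (interval -0.18 to 0.20, adjusted p = 0.980). Gpx2 differed by -0.13 with an interval from -0.73 to 0.46 (adjusted p = 0.905), and without WD control replicate 6 the sign turned, to 0.12. The 6 iPgc1α-/- mice lay closer together in Prdx5 (SD 0.05) than the WD controls (SD 0.20).

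Set against the chow controls, the iPgc1α-/- mice differ in diet and genotype together, and this comparison shares its arrays with both others. Of the 10 members, 4 were higher and 1 was lower, beside 36.8% of all genes called (16.8% higher and 20% lower). The groups did not overlap for 5 members, beside 16.2% of all genes. Catalase differed by 1.31 (2.48-fold, adjusted p = 9.1e-07), Gpx4 by 0.91 (adjusted p = 5.5e-07), Sod1 by 0.57 (adjusted p = 7.8e-06) and Prdx5 by 0.28 (adjusted p = 0.0202). Prdx3 was lower by a log2 fold change of -0.33 (SE 0.073, adjusted p = 0.0015), with every iPgc1α-/- mouse below every chow mouse, although neither of its single steps passed the test. Txnrd2, called for diet, differed here by 0.13 (adjusted p = 0.202). Sod2 differed by -0.24 (adjusted p = 0.118) and Gpx2 by -0.63 (interval -1.22 to -0.03, adjusted p = 0.095).

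Within the groups, the members did not vary as one set. The correlation of 2 genes' deviations from their group means over the 18 arrays, given as a description of arrays that share labelling and scanning, was above 0 for 23 of the 45 pairs and below 0 for 22. Prdx3 and Txnrd2, which act in the same mitochondrial chain, were the closest pair (r = 0.89), followed by Gpx4 and Prdx5 (r = 0.75). The most opposed pairs were Gpx4 with Prdx3 (r = -0.79) and Cat with Txn2 (r = -0.77). Among all genes, the nearest to Cat was Tmem135, a peroxisomal and mitochondrial membrane protein gene (r = 0.90), and the next were Fam20a and Rdh7, the latter a retinol dehydrogenase (r = 0.89 and 0.88). The nearest to Sod2 was Top1 (r = 0.92), to Prdx3 Dnajc15, a mitochondrial co-chaperone (r = 0.93), to Prdx5 Fam83b (r = 0.93), to Gpx1 Idh3g, a subunit of the mitochondrial isocitrate dehydrogenase (r = 0.90), to Gpx4 Slc3a2, an amino acid transporter chain (r = 0.88), and to Sod1 Casc3 (r = 0.87). For Txn2 and Txnrd2 the nearest features were probes with no gene symbol, and the nearest named genes were Lig1 (r = 0.86) and Zfp850 (r = 0.93).

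Gpx2 varied most closely with Gpx2-ps1, a processed copy of the gene on chromosome 7 (r = 0.97). The probes of Gpx2 and Gpx2-ps1 share no run longer than 5 of 60 bases and match different positions of their transcripts, 927 and 136. Which of the 2 copies each probe measured was not determined, so the Gpx2 values are uncertain to that extent.

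The surrounding pathway was described with 9 further lists holding 64 genes, of which 58 were tested. For diet, 16 of these rose and 9 fell, where 10.4% of all genes were called higher and 14.2% lower. Among the relatives of the members, 0 of 2 other superoxide dismutase genes, Sod3 and the copper chaperone Ccs, were called. Of 2 other tested glutathione peroxidases 1 was lower, Gpx7 (log2 fold change -0.40, adjusted p = 0.0066). Of 5 other peroxiredoxin and sulfiredoxin genes 1 was higher and 2 were lower. Prdx4, the peroxiredoxin of the endoplasmic reticulum, fell by 0.66 on the log2 scale (SE 0.16, adjusted p = 0.0061) by its brightest probe, and its other probe differed by 0.14. The cytosolic Prdx1 rose by 0.42 (adjusted p = 0.0041) and Prdx6 fell by 0.35 (adjusted p = 0.0044). Of 8 other thioredoxin and glutaredoxin genes 2 were higher, the cytosolic reductase Txnrd1 (0.32, adjusted p = 0.0063) and Glrx (0.40, adjusted p = 0.0117).

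In the list of glutathione synthesis, reduction and mitochondrial import, 4 of 8 tested genes rose and 1 fell, with a median of 0.25. Gclc and Gclm, the subunits of the rate-limiting ligase of glutathione synthesis, rose by 0.91 (SE 0.15, adjusted p = 2.3e-04) and 0.78 (SE 0.10, adjusted p = 1.6e-05). Ggt1, the brush-border enzyme that recovers glutathione's amino acids, rose by 0.84 (SE 0.11, adjusted p = 1.3e-05), and Slc25a39, the mitochondrial glutathione carrier, by 0.38 (adjusted p = 0.0078). Chac1, which degrades glutathione, fell by 2.06 (SE 0.51, adjusted p = 0.0061), from 8.77 ± 1.56 on chow to 6.70 ± 0.66 on WD (SD, n = 6 each).

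Of 6 genes of NADPH supply 2 rose, with a median of 0.23. Me1, malic enzyme, rose by 1.94 (SE 0.24, adjusted p = 1.1e-05, other probe 1.87), and Idh1, the cytosolic and peroxisomal isocitrate dehydrogenase, by 1.18 (SE 0.10, adjusted p = 1.4e-07, other probe 0.98). Of 8 genes listed under selenoprotein synthesis, 3 rose and 0 fell. The 3 were Sephs2 (0.47, adjusted p = 5.7e-04), Sepsecs (0.32, adjusted p = 0.0142) and Selenop (0.53, adjusted p = 4.7e-04). Selenop, named Sepp1 on the array, is itself a selenoprotein, like Gpx1, Gpx2, Gpx4 and Txnrd2, and not a synthesis enzyme. The genes named here whose change stayed under 1.5-fold were chosen after their values were seen.

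Of 7 tested producers of superoxide, hydrogen peroxide and nitric oxide 1 rose and 3 fell, with a median of -0.33. Nos2, the inducible nitric oxide synthase, fell by 2.47 (SE 0.37, adjusted p = 6.1e-05). Cyba, the p22phox subunit of NADPH oxidases, fell by 1.27 (SE 0.14, adjusted p = 3.4e-06), and its other probes differed by -0.17 and -1.31. All 5 T cell markers and all 5 B and plasma cell markers fell on the same diet, and their part in the values of Nos2 and Cyba was not tested. Of 12 coactivators and regulators 3 rose, Esrra (0.34, adjusted p = 0.0055), Foxo3 (0.44, adjusted p = 0.0103) and Sirt3 (0.45, adjusted p = 5.2e-04), and 2 fell, Ppargc1b (-0.54, adjusted p = 0.0079) and Pprc1 (-0.49, adjusted p = 0.0273). These are the brightest probes, and the other probes of Pprc1 differed by 0.45 and -0.18, so its probes did not read alike.

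For genotype, 2 of the 58 tested list genes were called, beside 0.227% of all genes. Nnt, the mitochondrial transhydrogenase that regenerates matrix NADPH and that C57BL6/J mice are known to carry in a deleted form, read 9.97 ± 0.22 in WD controls and 11.45 ± 0.11 in iPgc1α-/- mice (SD, n = 6 each). The difference was 1.48 (SE 0.10, adjusted p = 1.5e-07), and 2 dimmer probes of the gene differed by 0.06 and 0.61. Substrain background was not tested. Esrra, the nuclear receptor partner of Pgc1α, fell by 0.41 (SE 0.083, adjusted p = 0.0483, other probe -0.37), a call that held in 8 of 26 alternatives and was chosen for mention after its value was seen. Sirt3, the mitochondrial deacetylase that activates Sod2, differed by -0.37 (adjusted p = 0.0849).

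**Figure D3:**
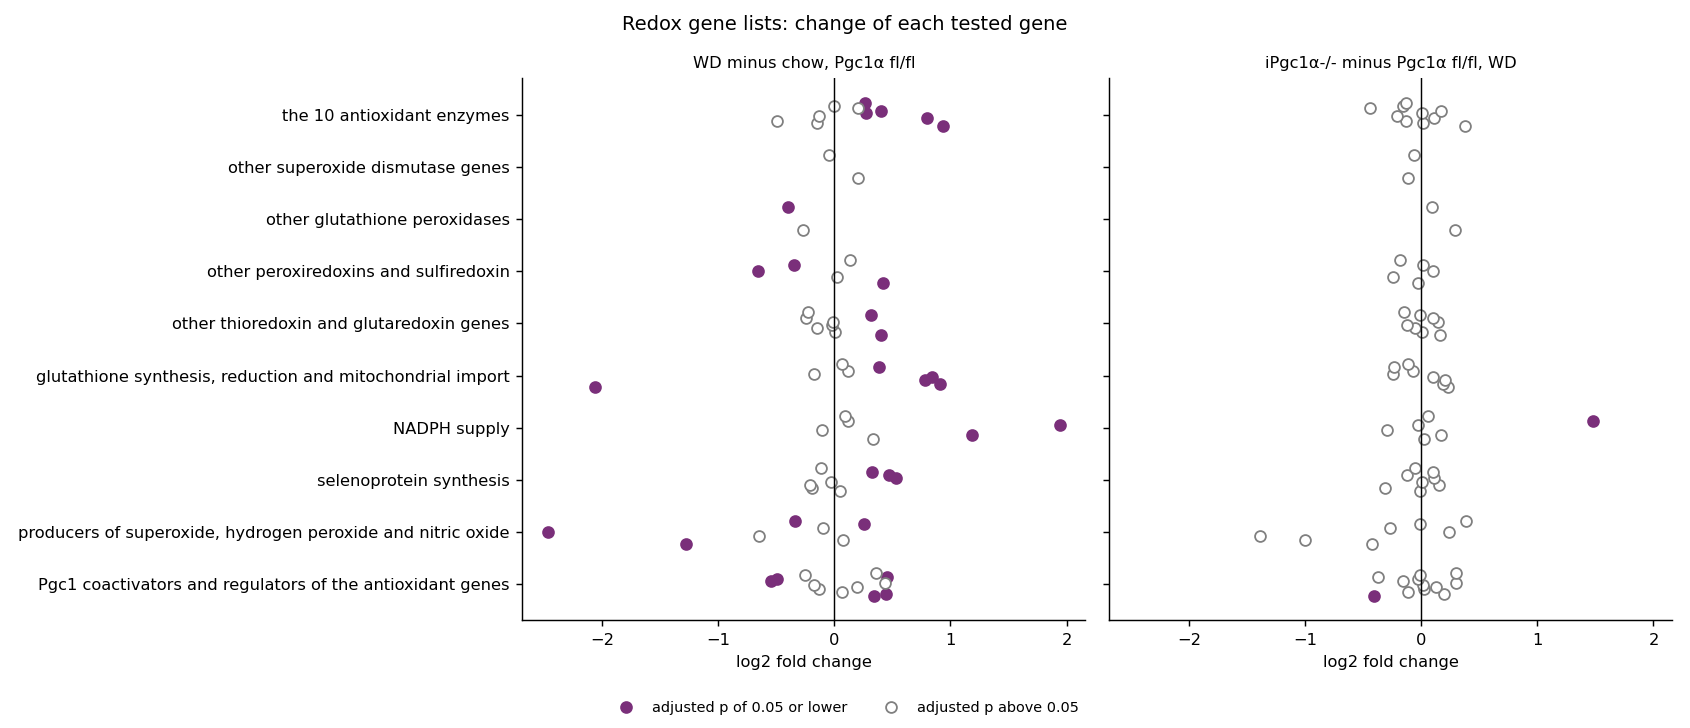
Each point is the log2 fold change of 1 tested gene by its brightest probe, in rows by list, for WD controls against chow controls (left) and iPgc1α-/- mice against WD controls (right); filled points have an adjusted p of 0.05 or lower. On the left the filled points reach from -2.47 (Nos2) to 1.94 (Me1), and on the right the 2 filled points are Nnt at 1.48 and Esrra at -0.41.

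Markers of several cell types that an ileal isolate can hold were called for diet, and no marker was called for genotype. The isolate expressed its defining epithelial markers, with Vil1, Epcam and Fabp2 above background on all 18 arrays. Of 7 enterocyte markers, 3 rose on WD (Alpi, Apoa4 and Lct) and 0 fell, while Vil1, Epcam, Fabp2 and Sis were not called. The summed signal of the 7 was 469136 to 634960 on chow, 675357 to 752587 in WD controls and 693331 to 847067 in iPgc1α-/- mice. Sums weigh the brightest probes most, so they do not show a shift of every marker. All 6 goblet cell markers fell, from 427511 to 566943 on chow to 185946 to 460426 on WD in sum, as did all 5 T cell markers (12201 to 44810 against 4769 to 9017) and all 5 B and plasma cell markers (1864 to 3395 against 994 to 1570). Of 4 proliferation markers 2 fell, and 2 of 4 tested macrophage and dendritic markers. In each of 4 other lists 1 marker fell, Slc10a2 of ileal enterocytes, Mmp7 of Paneth cells, Chga of enteroendocrine cells and Trpm5 of tuft cells, and 0 markers were called among the stem cell, neutrophil, fibroblast and muscle, endothelial and red blood cell lists. For genotype, 0 markers of the 15 lists were called, in a comparison where few genes pass, and their log2 fold changes ran from -0.89 (Ang4, adjusted p = 0.199) to 0.95 (Jchain, adjusted p = 0.459). The part of cell composition in the diet differences of the antioxidant enzymes was not tested.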

How the data were processed

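RNA of isolated ileal cells from 18 mice was hybridised to Agilent SurePrint G3 Mouse one-colour arrays. The authors deposited the spot intensity values of each array as read by Agilent Feature Extraction 10.10.1.1, with local background and flags for dim, saturated and outlying spots and no normalization between arrays. A further table deposited by them holds log2 values of 33095 probes. The column medians were 7.44, and the values followed the log2 signals of the scanner files as normalized here by qsmooth (r of at least 0.999994). The scale is therefore log2, not centred by gene. Such a correlation within an array does not tell which normalization the authors' values received. The methods of the study name a correction for washing bath and labelling series. The labels used here do not give these batches, and they were not tested.

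The labels gave groups and replicate numbers, each array being 1 mouse. After removal of control spots and of 46 to 153 outlier spots on an array, no spot was saturated, and 59305 spots gave 56605 probes by averaging. A probe was tested if at least 5 of the 6 arrays of some group flagged it as well above background (32726 probes). Median signals on the log2 scale were normalized by qsmooth, rewritten for R 4.3.3 with a window of 0.05, and tested with limma 3.58.1 (lmFit, eBayes; one model, 3 groups, no covariates) with Benjamini-Hochberg adjustment. Of 18 member probes, 16 were tested, and shares of all genes count the brightest probes of 21542 genes. The members and lists were chosen with earlier results of these data known. The text names the members, Ppargc1a, and list genes called with a change above 1.5-fold for diet or genotype. Other names were chosen after their values were seen. Genes most like a member were ranked by correlation of deviations from group means. Software also included the R package data.table, version 1.17.8, Python 3.11.15 and its library matplotlib 3.10.9. The procedure was tested on simulated data in which 200 of 32726 probes were changed. That is fewer than were called for diet here and more than the 49 genes called for genotype, so recovery in these data can differ. Of simulated log2 changes of 0.4, the procedure recovered 30% for diet and 54% for genotype, and of changes of 1, 96% for each. Probe positions are those of the array files (mm9), and promoter windows those of RefSeq (GRCm38.p6), which held all 10 members. Whether a probe lies in coding or untranslated sequence was not determined.

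Alternatives were background-subtracted or median signal scaled to the 75th percentile, normexp (offset 50) with quantile normalization, quantile normalization, the authors' table, a strict filter or none, a block for slide or for replicate number, fits of single pairs of groups, array weights, a robust variance with trend, the mean of a gene's probes, other thresholds, and each array left out.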

Additional observations from a re-analysis of the deposited data

Results flagged for a closer look

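Txn2 in WD control replicate 6 read 13.43, apart from the other 5 mice of its group, of which the nearest read 13.19. The gap made up 0.777 of the range of the group, above Dixon's critical value for 6 samples. It was 1 of 30 groups of values examined, of which chance singles out about 1 in 20. The same mouse had the highest value of its group for 5 of the 10 members and the lowest for 2. Chow control replicate 4 was likewise the highest for 5, and iPgc1α-/- replicate 6 the lowest for 5.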

How the results depend on the processing

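Whether replicate numbers pair mice was not determined. Deviations of same-numbered mice correlated at -0.22 to 0.35 (median 0.10, 18 pairs) and those of others at -0.36 to 0.44 (median -0.03, 90 pairs), ranges that overlap. Of the 10 members, 5 were called for diet with the replicate block, 0 for genotype and 5 for iPgc1α-/- mice against chow controls, and the block changed no call of a member. The count for diet was 2 when a change above 1.5-fold was also required and 3 at an adjusted p of 0.01, and it ran from 3 to 5 when single arrays were left out. For iPgc1α-/- mice against chow controls the count was 2 with the fold requirement, 7 with array weights (Gpx2 and Txn2 gained), 6 with only the 2 groups compared (Gpx2 gained) and 6 with the mean of probes (Txnrd2 gained). For genotype it was 0 under all 15 alternatives and all 18 arrays left out. Cat and Gpx4 were called for diet under all 13 alternatives and all 18 arrays left out. Sod1 lost its call with the mean of its probes, and Prdx5 with only the 2 groups compared (adjusted p = 0.0812) and with array weights.

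Signs turned only for differences that were not called. Txn2 for diet was 0.0846 with background-subtracted signal, 0.0859 with median signal at the 75th percentile and 0.0011 with quantile normalization and with the authors' values, and -0.046 to 0.031 with single arrays left out. Gpx1 for genotype was -0.0071 with median signal at the 75th percentile and -0.0269 to 0.0438 with single arrays left out. Prdx5 for genotype was -0.0553 and -0.0617 at the 75th percentile and -0.0365 to 0.0609 with single arrays left out. Gpx2 for genotype ran from -0.3068 to 0.1188. The causes were not tested. Of 260 values under processing alternatives 250 kept direction and call, as did 335 of 360 with an array left out. For the list genes named with a change above 1.5-fold, 8 of the processing alternatives and each array left out were run, added after seeing the data, and changed none of their calls. The mean of a gene's probes was not run for them. Under the scalings the median of all genes for diet lay between 0.002 and 0.04.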
